A study of Mus musculus with 8 samples.

Results

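The genes described here are 9 genes of the transforming growth factor beta (TGF-beta) pathway: the ligand genes Tgfb1, Tgfb2 and Tgfb3, the feedback targets Smad7, Pmepa1 and Skil, the transcription factor genes Snai1 and Snai2, and the intermediate filament gene Vim. They were taken by symbol, as the genes named by the RefSeq accession of an array probe, and all 9 were found among 20660 named genes and entered the tests, which covered 14035 genes. The cells were BMEL, an established line of bipotential liver progenitor cells from mouse embryos, all of them in culture. By medium, 3 arrays are labelled NoRX, 3 CM and 2 DIFF. The title names the question: how such cells respond to medium in which human amniotic epithelial cells had been kept. What the 3 media contain, how long the cells were kept in them and what the abbreviations stand for are not given in the sources used here. All groups are 1 line with no stated genetic change, so no comparison reaches beyond this line.

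TGF-beta ligands are secreted in a latent form, bound to matrix through latency proteins, and are freed by integrins and proteases. The active ligand brings its receptors together, which phosphorylate SMAD2 and SMAD3, and these enter the nucleus with SMAD4. In liver the pathway is known for restraining the growth of hepatocytes, for activating matrix-producing stellate cells and for driving epithelial cells towards a mesenchymal state, in which the Snail factors repress E-cadherin and vimentin is made.

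The upstream sequences of 4 member genes in the RefSeq promoter table (build GRCm38.p6) are shown, and those of the other members are not. The ligand genes Tgfb1 and Tgfb2 and the genes Snai1 and Vim differ between media below. SMAD and Snail proteins are known to bind short motifs in such regions. Each line holds the 250 bases before the gene's start, 5′ to 3′ on the gene's strand. Capitals mark the SMAD box, searched as CAGAC on both strands, and the Snail E-box, searched as CAGGTG on both strands.
Tgfb1 promoter, chr7:25686752-25687001 (+ strand): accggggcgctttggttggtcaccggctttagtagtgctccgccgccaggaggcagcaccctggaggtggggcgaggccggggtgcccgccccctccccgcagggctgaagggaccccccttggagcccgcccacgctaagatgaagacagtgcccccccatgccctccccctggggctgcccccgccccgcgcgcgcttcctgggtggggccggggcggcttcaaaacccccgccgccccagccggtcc
Tgfb2 promoter, chr1:186705990-186706239 (- strand): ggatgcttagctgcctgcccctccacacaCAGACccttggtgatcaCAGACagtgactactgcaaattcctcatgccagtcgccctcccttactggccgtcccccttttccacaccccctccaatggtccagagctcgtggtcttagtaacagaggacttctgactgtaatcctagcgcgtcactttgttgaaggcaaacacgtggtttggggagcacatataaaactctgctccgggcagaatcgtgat
Snai1 promoter, chr2:167537945-167538194 (+ strand): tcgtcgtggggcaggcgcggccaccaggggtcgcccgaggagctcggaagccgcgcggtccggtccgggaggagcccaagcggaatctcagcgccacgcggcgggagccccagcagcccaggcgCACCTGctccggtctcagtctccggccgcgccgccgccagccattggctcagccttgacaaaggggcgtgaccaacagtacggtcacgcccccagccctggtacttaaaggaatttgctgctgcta
Vim promoter, chr2:13574061-13574310 (+ strand): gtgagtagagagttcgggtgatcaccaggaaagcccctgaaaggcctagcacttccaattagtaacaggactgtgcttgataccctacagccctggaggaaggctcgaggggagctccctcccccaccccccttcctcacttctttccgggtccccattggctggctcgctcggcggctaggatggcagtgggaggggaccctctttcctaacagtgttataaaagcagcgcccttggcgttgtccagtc
The Tgfb2 window held the SMAD box at 2 places, 221 and 204 bases before the start, and the windows of Tgfb1, Snai1 and Vim held none. Of 32851 windows of that length in the table, 42.2% held the SMAD box at least once and 11.7% held it at least 2 times. The Snail E-box stood once, 126 bases before the start of Snai1, and in 17.2% of all windows. The AP-1 motif TGANTCA, read on both strands, was in none of the 4 windows and in 6.75% of all. No motif overlapped another. The share of G and C was 75.2% for Tgfb1, 70.0% for Snai1, 58.4% for Vim and 53.6% for Tgfb2, against a median of 52.4% over all windows. These matches describe the letters only, since no binding was measured.

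Levels are log2 signals minus the 75th percentile of the array, so a level can be compared between arrays for 1 gene but not between genes. Between 46.4% and 53.5% of spots were well above background per array. DIFF replicate 2 had the lowest share and a bright patch, with 1159 spots of uneven local background against 3 to 90 on the other arrays. The 2 DIFF arrays correlated across genes at 0.9603, against 0.9908 to 0.9942 within the other groups, and the median SD of a gene was 0.194 in DIFF, 0.0638 in NoRX and 0.0641 in CM. The test pools these spreads, and nothing in the labels says that replicates are separate cultures, so a p-value here covers no more than the spread from array to array, which may be technical. Slide row 1 held all 3 NoRX arrays with CM replicate 1, and row 2 held the other CM arrays and both DIFF arrays. No row held both DIFF and NoRX. Within slide row, CM against NoRX therefore compares CM replicate 1 alone with the 3 NoRX arrays, so those differences have no replicate in CM. The 3 comparisons share arrays and are not independent of each other.

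In CM the 9 genes moved in both directions. The ligand genes Tgfb1 and Tgfb2 and the repressor gene Snai1 were higher than in NoRX, while Snai2, Pmepa1 and Vim were lower and Smad7 did not pass the test. In DIFF none of the 9 was called higher than in NoRX, and Tgfb1, Smad7, Pmepa1, Skil, Snai1 and Vim were lower. Of all genes tested, 14% were called higher and 28.1% lower in that comparison. Snai2 and Tgfb2 differed strongly between CM and the other media but passed in neither direction between DIFF and NoRX.

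**Figure D1:**
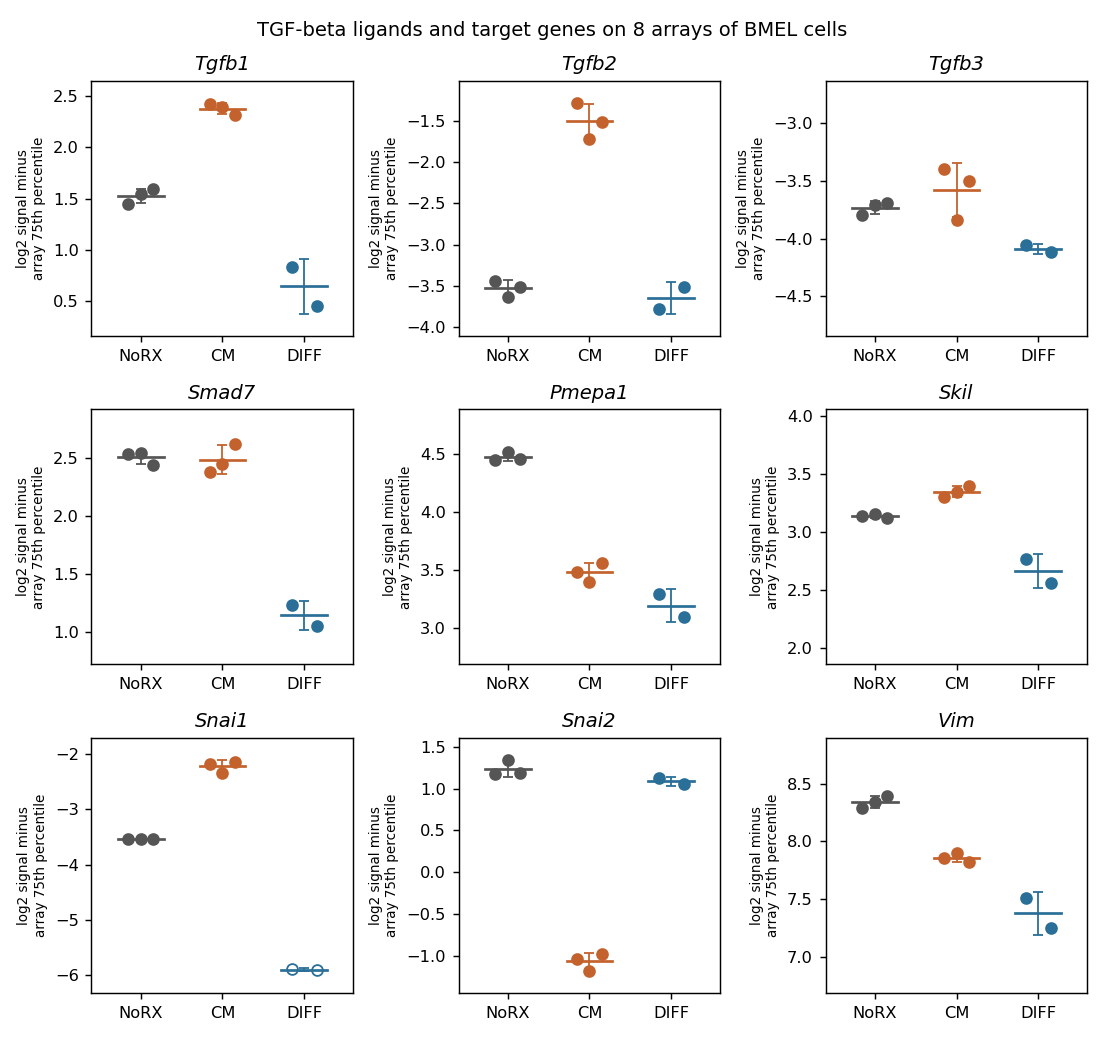
Levels of the 9 genes on each array, as log2 signal minus the array's 75th percentile (y axis, own range per gene) against medium. Points are arrays, horizontal lines are group means and bars are SDs; open points mark a group in which the probe was well above background on no array. Tgfb1 separates all 3 media, at 1.45 to 1.59 in NoRX, 2.32 to 2.42 in CM and 0.45 to 0.83 in DIFF, and Snai2 stands apart in CM, at -1.18 to -0.98.

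Tgfb1 encodes the most widely studied ligand of the family. Its level was 1.45, 1.54 and 1.59 on the NoRX arrays, 2.42, 2.40 and 2.32 on the CM arrays, and 0.83 and 0.45 on the DIFF arrays. The 3 media did not overlap: every CM array lay above every NoRX array, and both DIFF arrays lay below. Tgfb1 was 1.81-fold higher in CM than in NoRX (log2 difference 0.85 ± 0.094 SE, adjusted p = 2.29e-05, limma). It was 1.85-fold lower in DIFF than in NoRX (-0.89 ± 0.11, adjusted p = 4.41e-05) and 3.34-fold lower in DIFF than in CM (-1.74 ± 0.11, adjusted p = 1.03e-07). Within slide row the differences were 0.89 for CM against NoRX and -1.72 for DIFF against CM. The Tgfb1 probe was printed at 10 spots, whose SD within an array was 0.028 to 0.044, so the DIFF arrays, at 0.83 and 0.45, differed by more than the spots of either. On DIFF replicate 2, 1 of the 10 spots lay in the bright patch, and the level there was 0.45 with that spot and 0.46 without it.

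Tgfb2 encodes the second ligand, which needs the co-receptor betaglycan to bind well. Its level was -3.44, -3.63 and -3.51 in NoRX, -1.29, -1.72 and -1.52 in CM, and -3.78 and -3.51 in DIFF. All 3 CM arrays were high, and the NoRX and DIFF arrays overlapped. Tgfb2 was 4.04-fold higher in CM than in NoRX (2.02 ± 0.16, adjusted p = 2.11e-06) and 4.38-fold lower in DIFF than in CM (-2.13 ± 0.18, adjusted p = 1.57e-06). The difference of DIFF from NoRX was -0.12, with a 95% confidence interval of -0.51 to 0.28 (adjusted p = 0.632), and it was 0.04 under median centring. These sizes depended on the background correction: after normexp the differences were 1.27 for CM against NoRX and -0.94 for DIFF against CM, both still past the test. Within slide row they were 2.24 and -2.02. A second Tgfb2 probe was well above background on 1 NoRX array, all 3 CM arrays and no DIFF array. It read -5.80, -6.75 and -3.06 in NoRX, so that 1 NoRX array exceeded the CM arrays at -3.94, -3.98 and -3.98. On that probe CM differed from NoRX by 1.24 ± 0.74 without passing (adjusted p = 0.192). DIFF was at least 1.9-fold lower than CM, an approximate bound since no DIFF array was above background. The fitted difference of DIFF from CM on that probe had an adjusted p of 0.025.

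Tgfb3 encodes the third ligand. Its level was -3.80, -3.71 and -3.69 in NoRX, -3.40, -3.84 and -3.50 in CM, and -4.06 and -4.12 in DIFF. The NoRX and CM arrays overlapped, and both DIFF arrays lay lowest. No comparison passed: CM differed from NoRX by 0.15 (95% confidence interval -0.29 to 0.59, adjusted p = 0.567), DIFF from NoRX by -0.36 (-0.85 to 0.13, adjusted p = 0.226) and DIFF from CM by -0.51 (-1 to -0.02, adjusted p = 0.0712). The last passed without the mean-variance trend (adjusted p = 0.0128) and over probes well above background on all arrays (adjusted p = 0.0388), but after normexp it was 0.18, and the difference of DIFF from NoRX 0.19, both with the opposite sign. The 10 spots of this probe spread with an SD of 0.15 to 0.27 within an array, wider than those of the Tgfb1 and Skil probes.

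**Figure D2:**
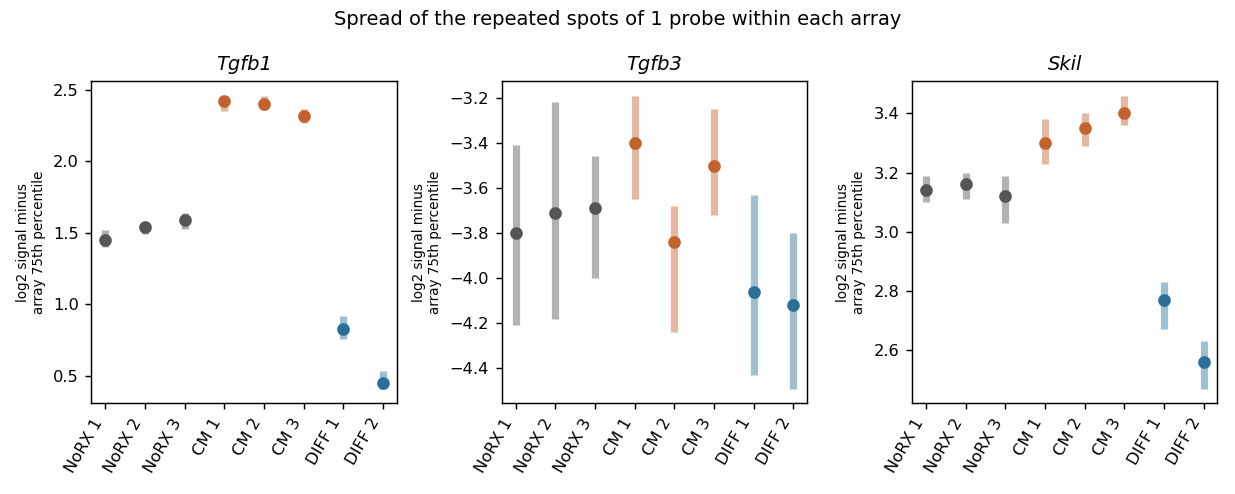
Range (bars) and mean (points) of the repeated spots of the Tgfb1, Tgfb3 and Skil probes on each of the 8 arrays (x axis), in log2 signal minus the array's 75th percentile (y axis, own range per gene). The spots of Tgfb1 form narrow bands with an SD of at most 0.044 that separate the media, while those of Tgfb3 overlap between arrays of all 3 media.

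Smad7 encodes the inhibitory SMAD that blocks the TGF-beta receptor and is itself induced by the pathway. Its level was 2.53, 2.54 and 2.44 in NoRX, 2.38, 2.45 and 2.62 in CM, and 1.23 and 1.05 in DIFF. NoRX and CM overlapped, and both DIFF arrays lay far below them. Smad7 was 2.56-fold lower in DIFF than in NoRX (-1.36 ± 0.092, adjusted p = 4.28e-07) and 2.53-fold lower than in CM (-1.34 ± 0.092, adjusted p = 2.88e-07). CM differed from NoRX by -0.02, with a 95% confidence interval of -0.20 to 0.16 (adjusted p = 0.873). In CM, then, the ligand genes Tgfb1 and Tgfb2 were higher while Smad7 moved by no more than that interval allows.

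Pmepa1 encodes a membrane protein that sequesters SMADs and is another induced inhibitor. Its level was 4.45, 4.52 and 4.46 in NoRX, 3.48, 3.40 and 3.56 in CM, and 3.29 and 3.09 in DIFF. The NoRX arrays were highest and no groups overlapped, though DIFF replicate 1 lay close to the lowest CM array. Pmepa1 was 2-fold lower in CM than in NoRX (-1 ± 0.075, adjusted p = 1.35e-06) and 2.44-fold lower in DIFF than in NoRX (-1.28 ± 0.084, adjusted p = 3.22e-07). The second Pmepa1 probe gave -1.05 ± 0.082 and -1.34 ± 0.092. DIFF was a further 1.22-fold below CM (-0.29 ± 0.084, adjusted p = 0.0119). This last call was lost under median centring (-0.12), with array weights (adjusted p = 0.141), within slide row 2 (adjusted p = 0.175) and without CM replicate 3 (-0.25, adjusted p = 0.0547). Within slide row the other difference, of CM from NoRX, was -1.

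Skil encodes SnoN, a SMAD corepressor that TGF-beta first degrades and then induces. Its level was 3.14, 3.16 and 3.12 in NoRX, 3.30, 3.35 and 3.40 in CM, and 2.77 and 2.56 in DIFF. The 3 media did not overlap, with CM highest and DIFF lowest. Skil was 1.4-fold lower in DIFF than in NoRX (-0.48 ± 0.08, adjusted p = 0.000577) and 1.61-fold lower than in CM (-0.69 ± 0.08, adjusted p = 2.25e-05). The first of these was lost under median centring (-0.32, adjusted p = 0.0868). Its rise in CM was 1.15-fold (0.21 ± 0.072, adjusted p = 0.0329) and was lost in 13 of 23 alternatives, among them leaving out any 1 NoRX or CM array (adjusted p = 0.0609 to 0.128). The second Skil probe differed by -0.12 ± 0.11 between CM and NoRX (adjusted p = 0.388), opposite in sign, and by -0.51 in DIFF against NoRX (adjusted p = 0.00533).

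**Figure D3:**
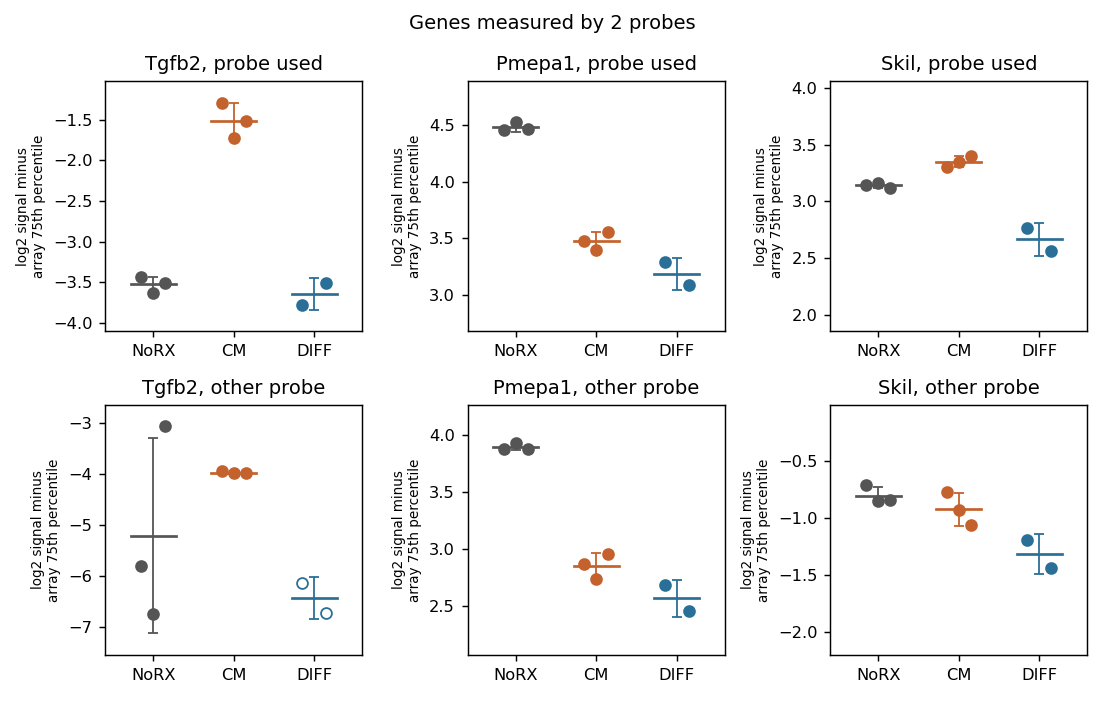
Levels on each array of the probe used (upper panels) and the other probe (lower panels) of Tgfb2, Pmepa1 and Skil, as log2 signal minus the array's 75th percentile (y axes, own range per panel) against medium. Points are arrays, lines are means and bars are SDs; open points mark a group with no array well above background. The Pmepa1 probes give the same order of media, the other Tgfb2 probe has 1 NoRX array at -3.06 above the CM arrays, and the other Skil probe has CM below NoRX by 0.12.

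Snai1 encodes Snail, a repressor of E-cadherin that TGF-beta induces. Its level was -3.54, -3.53 and -3.54 in NoRX and -2.18, -2.35 and -2.14 in CM. The DIFF arrays read -5.88 and -5.91, where the probe was not well above background. The 3 media did not overlap, with CM highest. Snai1 was 2.48-fold higher in CM than in NoRX (1.31 ± 0.18, adjusted p = 0.000103), and 0.73 after normexp (adjusted p = 0.0166). For DIFF only an approximate bound can be given. It sets the mean of the brighter group against the lowest signal that counted as well above background. A probe not well above background can read higher than that signal, as Acta2 did on NoRX replicate 2, at -5.07 against -5.89. The adjusted p-values beside the bounds are those of the fitted differences. Snai1 was at least 2.57-fold lower in DIFF than in NoRX (adjusted p = 2.62e-06) and at least 6.37-fold lower than in CM (adjusted p = 4.13e-08). After normexp, which adds an offset to all signals, DIFF differed from NoRX by -0.23 without passing (adjusted p = 0.485) and from CM by -0.96 (adjusted p = 0.00538). Within slide row CM differed from NoRX by 1.35.

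Snai2 encodes Slug, the related repressor. Its level was 1.17, 1.34 and 1.19 in NoRX, -1.04, -1.18 and -0.98 in CM, and 1.12 and 1.05 in DIFF. The CM arrays were low, and the DIFF arrays lay just below the NoRX arrays without overlap. Snai2 was 4.93-fold lower in CM than in NoRX (-2.30 ± 0.083, adjusted p = 7.17e-09), the opposite direction to Snai1. It was 4.45-fold higher in DIFF than in CM (2.15 ± 0.092, adjusted p = 5.93e-09). DIFF differed from NoRX by -0.15 (95% confidence interval -0.35 to 0.06, adjusted p = 0.226). Within slide row the differences were -2.28 for CM against NoRX and 2.17 for DIFF against CM.

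Vim encodes vimentin, the intermediate filament protein of mesenchymal cells, which cultured epithelial cells also make. Its level was 8.29, 8.34 and 8.39 in NoRX, 7.86, 7.90 and 7.82 in CM, and 7.51 and 7.25 in DIFF. The media did not overlap, and NoRX was highest. Vim was 1.39-fold lower in CM than in NoRX (-0.48 ± 0.076, adjusted p = 0.000336), 1.94-fold lower in DIFF than in NoRX (-0.95 ± 0.085, adjusted p = 4.48e-06) and 1.39-fold lower in DIFF than in CM (-0.48 ± 0.085, adjusted p = 0.000582). The fall in CM was -0.30 under quantile normalization, and that of DIFF from CM was -0.30 under median centring, both past the test. Within slide row both differences were -0.47.

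Counted together, 4 of the 9 genes rose in CM against NoRX, 3 fell and 2 did not pass. Among all genes tested, 26.9% were called higher and 25.3% lower in that comparison. The median difference of the 9 genes was 0.15 and of all genes 0.0113. In DIFF against NoRX 0 rose, 6 fell and 3 did not pass, where 14% of all genes were called higher and 28.1% lower. Those medians were -0.89 and -0.104. After normexp the median of the 9 genes was -0.51, and the median of all genes was 0.053 under median centring and 0.026 without DIFF replicate 2. In DIFF against CM 1 rose, 7 fell and 1 did not pass, where 23.6% of all genes were called higher and 35.6% lower, with medians of -0.69 and -0.114. Without DIFF replicate 2 the counts of the 9 genes were the same in each direction in all 3 comparisons. The split over all genes depended on scaling and on the DIFF arrays. DIFF against NoRX gave 1961 higher and 3947 lower genes, but 2400 and 2133 under median centring and 3766 and 3368 without DIFF replicate 2. DIFF against CM gave 3315 and 4990, but 3936 and 3184 under median centring and 4706 and 4387 without that array. Under median centring 5 of the 9 genes fell in DIFF against NoRX, all but Skil of the 6.

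**Figure D4:**
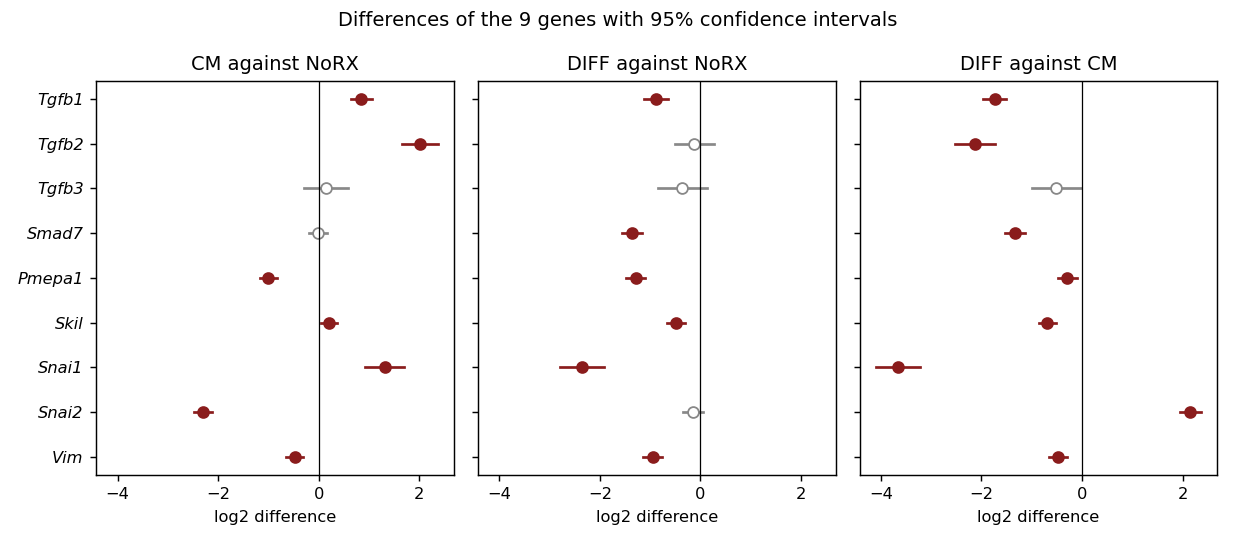
Log2 differences (x axis) of the 9 genes (y axis) in the 3 comparisons, with 95% confidence intervals from the limma fit; filled red points passed the adjusted threshold and open grey points did not. In DIFF against NoRX none of the genes that passed lies to the right of 0, while in CM against NoRX Tgfb2 at 2.02 and Snai2 at -2.30 lie on opposite sides. The fitted Snai1 differences that involve DIFF rest on signals not well above background.

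The other genes of the pathway were read from lists, in the order in which the signal passes. These lists were chosen with earlier results of these data known. Their counts stand beside the shares of all genes given above: 26.9% called higher and 25.3% lower in CM against NoRX, 14% and 28.1% in DIFF against NoRX, and 23.6% and 35.6% in DIFF against CM. Of 17 latency and activation genes, 12 were tested, and 2 rose and 5 fell in CM (median -0.16). Itgb6, of the integrin that frees latent TGF-beta, fell 3.68-fold and the latency protein gene Ltbp4 2.16-fold in CM. The integrin gene read 1.66, 1.74 and 1.71 in NoRX and -0.17, -0.23 and -0.14 in CM. In DIFF against NoRX 0 rose and 7 fell (median -0.65, or -0.28 after normexp). Ltbp1 fell 8.2-fold (-3.03 ± 0.11, adjusted p = 2.2e-09), from 1.60, 1.44 and 1.64 to -1.53 and -1.42, and the activator thrombospondin gene Thbs1 fell 3.49-fold.

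Of 10 receptor and co-receptor genes, 9 were tested. In CM 4 rose and 2 fell (median 0.32), and in DIFF against NoRX 3 rose and 3 fell (median -0.07). Tgfbr1, the kinase receptor that phosphorylates SMADs, read 3.30, 3.29 and 3.34 in NoRX, 2.40, 2.53 and 2.60 in CM, and 4.21 and 3.96 in DIFF. It fell 1.74-fold in CM (adjusted p = 1.33e-05) and rose 1.71-fold in DIFF (adjusted p = 4.33e-05), against the direction of Tgfb1 in each medium. Tgfbr2, the ligand-binding receptor, rose 1.25-fold in CM (0.32 ± 0.075, adjusted p = 0.00402). That call was lost under median centring and with slide row as a block, and the difference was 1.01 as the mean of its probes. Tgfbr3, which encodes betaglycan, rose 4.55-fold in DIFF (2.18 ± 0.12, adjusted p = 5.89e-08), and the activin and BMP receptor gene Acvr1 fell 1.83-fold there.

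Of 15 genes of SMADs and their regulators, 14 were tested. In CM 6 rose and 1 fell (median 0.24), and in DIFF against NoRX 0 rose and 8 fell (median -0.44). Smad3 rose 1.61-fold in CM (0.69 ± 0.066, adjusted p = 8.45e-06) and fell 1.54-fold in DIFF (-0.62 ± 0.074, adjusted p = 4.61e-05). Its levels were 4.79, 4.78 and 4.80 in NoRX, 5.45, 5.46 and 5.51 in CM, and 4.26 and 4.08 in DIFF, without overlap. Smurf1, a ubiquitin ligase that removes SMADs and receptors, rose 1.84-fold in CM and fell 2.13-fold in DIFF. Smad6, the inhibitory SMAD of the BMP branch, rose 1.59-fold in CM and fell 1.74-fold in DIFF. Smad2 fell 1.45-fold in DIFF and differed from NoRX by 0.04 in CM (adjusted p = 0.698). Smad4, the common partner, rose 1.18-fold in CM, a call lost under median centring, normexp and the row block and without CM replicate 3 or NoRX replicate 1 or 3, and differed by 0.03 in DIFF (adjusted p = 0.769). The number of these genes that rose in CM was 5 under median centring, 5 after normexp and 7 under quantile normalization. In DIFF against NoRX 6 fell under median centring, 5 after normexp and 8 under quantile normalization.

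Of 10 activin and related genes 6 were tested, and 1 rose in CM and 1 fell in DIFF against NoRX. Gdf15, a distant stress-induced relative of TGF-beta, rose 2-fold in CM. Inhba, which encodes the activin A subunit, fell 3.06-fold in DIFF (-1.61 ± 0.094, adjusted p = 1.27e-07).

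Of 18 other TGF-beta target genes 15 were tested, with 6 higher and 3 lower in CM (median 0.12) and 2 higher and 10 lower in DIFF against NoRX (median -0.45). Ccn2, a matricellular protein gene also induced by YAP, fell in both media, 5.22-fold in CM and 2.23-fold in DIFF. It read 6.34, 6.39 and 6.42 in NoRX, 4.16, 3.82 and 4.02 in CM, and 5.30 and 5.15 in DIFF. Klf10, an early TGF-beta response gene, rose 1.78-fold in CM. In DIFF the cytokine gene Il11 fell 3.44-fold (-1.78, or -1.13 after normexp) and the cell cycle inhibitor gene Cdkn2b 1.95-fold. Tgfbi, a matrix protein gene named for its induction by TGF-beta and singled out here after its values were seen, was well above background on no NoRX or CM array. It was at least 4.1-fold higher in DIFF than in NoRX, an approximate bound. Tgfbi entered the tests only through the DIFF arrays, so no p-value is given. It is counted among the 2 higher genes above, and for that reason its place there is not a test result.

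Of 23 other mesenchymal genes 16 were tested. In CM 4 rose and 5 fell (median -0.08), and in DIFF against NoRX 1 rose and 7 fell (median -0.39). S100a4, a calcium-binding protein gene, fell 2.86-fold in CM and 1.66-fold in DIFF, and the matrix gene Sparc fell 1.75-fold in DIFF. Fn1, which encodes fibronectin, fell 1.54-fold in CM and rose 1.53-fold in DIFF, where Vim fell. The fibronectin receptor gene Itga5 rose 2.45-fold in CM. Zeb1, a repressor that acts beside Snail and Slug, rose 1.19-fold in CM (adjusted p = 0.0379), a call lost without NoRX replicate 1 or 2 or any 1 CM array, and differed by 0.06 in DIFF (adjusted p = 0.653). Under normexp the list's median in DIFF against NoRX was -0.08, and without DIFF replicate 2 it was -0.16.

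Of 19 epithelial genes 16 were tested, with 6 higher and 5 lower in CM (median -0.02) and 1 higher and 11 lower in DIFF against NoRX (median -0.45). The claudin gene Cldn4, of tight junctions, rose 4.14-fold in CM (2.05, or 0.97 after normexp) and the adhesion gene Epcam 2.35-fold. The 5 lower in CM include the keratin genes Krt8 (-0.43), Krt18 (-0.24) and Krt19 (-0.55). In DIFF Epcam fell 3.59-fold (-1.84, or -1.08 after normexp), the splicing regulator gene Esrp1 2.43-fold and the desmosome gene Dsp 2.08-fold. Cdh1, the E-cadherin gene that Snail and Slug repress, differed by -0.12 in CM (adjusted p = 0.212). It passed in 7 of 23 alternatives, among them quantile normalization (-0.20, adjusted p = 0.0195). Within slide row, with 1 CM array, Cdh1 differed by -0.18. In DIFF it fell 1.2-fold (-0.26 ± 0.085, adjusted p = 0.0299), a call lost in 13 of 22 alternatives, including median centring (-0.10) and leaving out DIFF replicate 2 (-0.13). After normexp 2 epithelial genes fell in CM in place of 5, and under median centring 7 fell in DIFF in place of 11.

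Between DIFF and CM, the SMAD list had 0 genes higher and 12 lower in DIFF (median -0.56), and the receptor list 2 higher and 7 lower (median -0.53). Smurf1 was 3.92-fold, Smad6 2.75-fold and Smad3 2.48-fold lower in DIFF, while Tgfbr3 was 5-fold and Tgfbr1 2.98-fold higher. Of the latency and activation genes 1 was higher and 6 lower, and of the other targets 3 were higher and 10 lower, with Klf10 2.84-fold lower and Ccn2 2.34-fold higher. The 3 higher targets include Tgfbi, which entered the tests only through the DIFF arrays. Of the other mesenchymal genes 3 were higher and 6 lower, with Fn1 2.36-fold higher and Itga5 3.89-fold lower. Of the epithelial genes 2 were higher and 7 lower, with Epcam 8.42-fold lower, and of the activin genes 1 was higher and 2 were lower. Under median centring, 7 SMAD genes and 4 receptor genes were lower in place of 12 and 7.

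**Figure D5:**
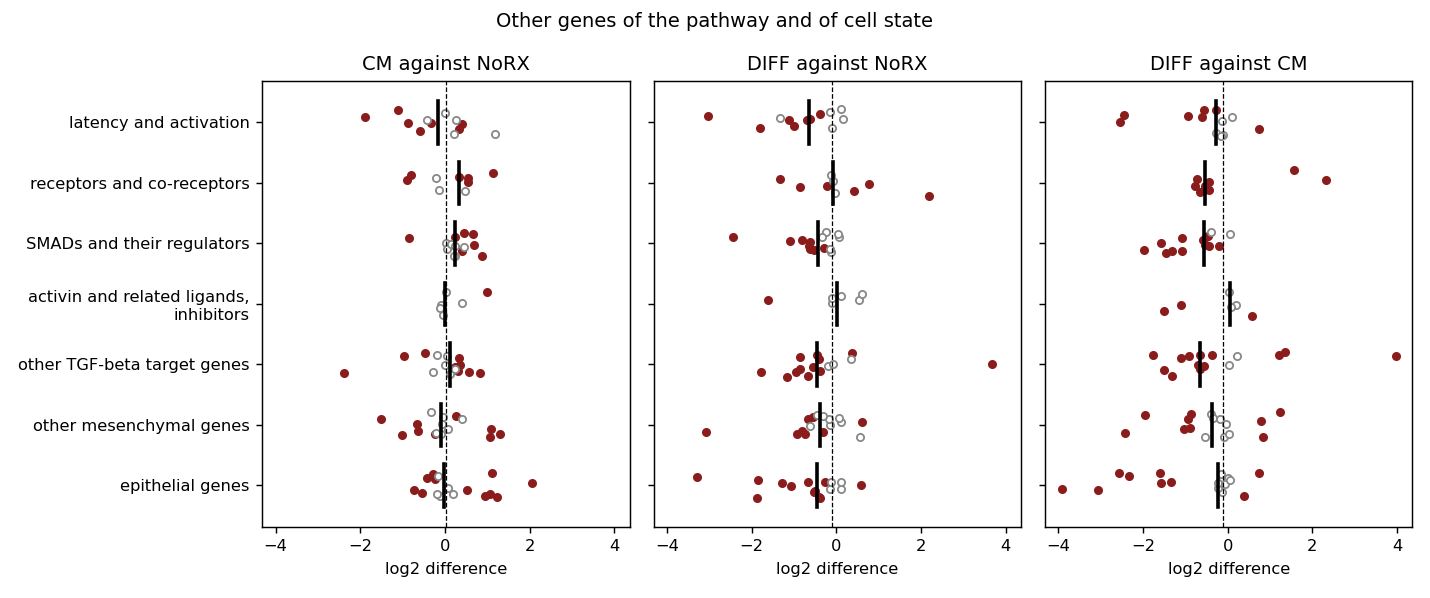
Log2 differences (x axis) of the tested genes of each list (y axis) in the 3 comparisons; red filled points passed the adjusted threshold, open points did not, thick lines are list medians and the dashed line is the median of all genes. In DIFF against NoRX the SMAD list has its median at -0.44 and no gene called higher; in CM against NoRX its median is 0.24.

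Markers of other cell types were read beside these results, since fewer cells of a type and less RNA per cell cannot be told apart in a bulk sample. Of 10 hepatoblast and progenitor markers, 9 were well above background on all NoRX arrays, 9 on all CM arrays and 8 on all DIFF arrays. Of the 9 tested, 4 rose and 5 fell in CM and 2 rose and 7 fell in DIFF against NoRX, where Alb, the albumin gene, rose 469-fold and the progenitor factor gene Sox9 fell 3.12-fold. The summed signal of the 10, in units of the array's 75th percentile, was 1590 to 1690 in NoRX, 1210 to 1300 in CM and 1080 to 1370 in DIFF. Such a sum follows its brightest markers, here Krt8, Krt18 and Krt19, with NoRX means of 8.49, 9.44 and 8.97. Of 10 stellate cell and fibroblast markers, 4 were above background on all NoRX and all CM arrays and 1 on all DIFF arrays. Pdgfrb, Lrat, Reln, Lum and Thy1 were above it on no array. The summed signal of all 10 stellate cell and fibroblast markers was 0.677 to 0.714 in NoRX, 1.52 to 1.85 in CM and 0.263 to 0.326 in DIFF. In CM most of it came from Des, at a mean level of 0.02. Dcn read -1.53 on CM replicate 1 and -4.27 on the other CM arrays. Of the 5 tested, Pdgfra rose 2.38-fold and Des 3.83-fold in CM, Col1a1 fell 1.58-fold and 2 did not pass. The summed signal of 5 macrophage and leukocyte markers was 5.42 to 5.96 in NoRX, 10.3 to 10.4 in CM and 3.33 to 4.49 in DIFF. Adgre1 was above background on no array, and Ptprc and Clec4f on no NoRX or DIFF array. Cd14 and Csf1r, at mean levels of 2.82 and 1.7 in CM, carried most of that sum. The endothelial sum was 10.1 to 12.2 in NoRX, 10.5 to 11.4 in CM and 8.3 to 9.77 in DIFF. The mesothelial sum was 284 to 289, 211 to 229 and 240 to 270 in the same order. Kdr, at a mean of 3.41 in NoRX, carried most of the endothelial sum, and Msln, at 8.14, most of the mesothelial sum. In DIFF against NoRX Kdr fell 1.26-fold and Lyve1 rose 11.9-fold. The Lyve1 fold starts near background, from a NoRX mean of -4.8, with 2 of the 3 NoRX arrays well above background. A sum therefore does not describe every marker of its list. The part of these markers in the results was not tested.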

How the data were processed

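RNA from BMEL cells in 3 media was labelled with Cy3 and hybridised to 8 one-colour Agilent arrays of 1 slide. The deposited values are spot intensities from Agilent Feature Extraction 11.0.1.1, subtracted for background and detrended within each array per the file headers, with no scaling between arrays recorded. The series value table repeats these intensities (largest difference 0). Control spots and outlier spots were left out, log2 was taken, and each array's 75th percentile was subtracted. The number of arrays limits the precision.

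Of 55681 probes, 27235 matched a RefSeq accession of assembly GRCm38.p6, naming 20660 genes. The array design uses mm9, so no coordinates of probes are given. Spots of a probe were averaged, and each gene was read from its probe with the highest mean over the 8 arrays. Genes well above background on at least 2 arrays were tested (14035 genes). Limma 3.58.1 in R 4.3.3 fitted all 8 arrays together (eBayes with a mean-variance trend, two-sided). Adjusted p-values are Benjamini-Hochberg values over the genes tested, with a threshold of 0.05. A fold is an approximate bound where all arrays of one group and none of the other were above background. The functions were tested on simulated data. Normexp (offset 50) used the median signal of a spot, since a mean signal is not given in the scanner files used here.

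The 9 genes and the lists were chosen with earlier results of these data known. Named besides the 9 genes are, per list and comparison, up to 3 genes with the largest difference among those past the threshold and above background on every array of both groups, a panel (Tgfbr1, Tgfbr2, Smad2, Smad3, Smad4, Ccn2, Fn1, Zeb1, Cdh1 and 1 gene that is not reported here) and, for 6 genes, the 3 most similar patterns. The examples given were selected from these, and marker genes are named as the lists hold them. Replicate numbers come from the titles; another label numbers both DIFF arrays as replicate 1, and averaging both was therefore one alternative. The alternatives were other scalings, background correction, filters, probe rules, blocks, array weights and leaving out each array. Testing each probe alone, and the gene lists under other scalings and without DIFF replicate 2, were chosen after seeing the data. Figures were drawn with matplotlib 3.10.9.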

Additional observations from a re-analysis of the deposited data

How the results depend on the processing

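Over the alternatives, 588 of 609 values of the 9 genes kept their side of the threshold, and their direction where they passed. Another 19 no longer passed, 2 newly passed and 0 of the called values reversed. A value that passed in neither fit could change sign and still count as kept, as Tgfb3 did in DIFF against CM after normexp. Of 1856 values of the other named genes 1772 were kept by that rule, 71 no longer passed, 12 newly passed and 1 reversed. That was Tgif2, lower in DIFF than in NoRX at -0.64 but 0.11 after normexp (adjusted p = 0.696), and the cause was not tested. With slide row as a block 4796 genes were called in CM against NoRX in place of 7328 and 2802 in DIFF against NoRX in place of 5908. With array weights 3038 were called in DIFF against NoRX and 5385 in DIFF against CM in place of 8305. The causes were not tested. Same-numbered arrays did not deviate together in all pairs of groups: the correlations of their deviations were -0.0075, 0.0094 and -0.055 for NoRX and CM, -0.024 and -0.025 for NoRX and DIFF, and 0.087 and 0.17 for CM and DIFF. With the replicate number as a block, 6, 6 and 8 of the 9 genes were called in the 3 comparisons, against 7, 6 and 8 without it, and 6867, 5284 and 7766 genes in all; among the 9 genes it changed only the call of Skil in CM (adjusted p = 0.0707). Signal near background limits the values of Tgfb2, Tgfb3 and Snai1.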

Other observations

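For 6 of the 9 genes, the genes with the most similar pattern over the 8 arrays are given as a description. The 8 arrays form only 3 media on 1 slide, so any gene with the same order and spacing of media scores high. For Tgfb1 these were Avpi1 (Pearson r = 0.9993), Psd (0.9992) and G6pc3 (0.9985). Avpi1, named for its induction by vasopressin, had mean levels of 6.39 in NoRX, 6.89 in CM and 5.92 in DIFF. For Smad7 they were Ankrd44 (0.9979), Bco2 (0.9976) and Mst1r (0.9975). Mst1r, the receptor gene for macrophage-stimulating protein, had means of 2.77, 2.71 and 0.98. For Pmepa1 they were Hyal2 (0.9987), Rab38 (0.9979) and Sec16b (0.9973), and for Vim Htra3 (0.9987), Fbxl18 (0.9971) and Fbxl19 (0.9963). Hyal2, a hyaluronidase gene, had means of 4.15, 3.42 and 3.24, and the secreted protease gene Htra3 0.52, -0.14 and -0.89. For Tgfb2 they were the transporter gene Slc47a1 (0.9944) and the prolactin family genes Prl5a1 (0.9918) and Prl2a1 (0.9914), relatives that can share probe signal. Prl2a1 had means of -7.19 in NoRX, 1.52 in CM and -7.08 in DIFF. The NoRX and DIFF means of all 3 genes lay below -5.89. That was the lowest signal that counted as well above background on any NoRX or DIFF array. Their high r therefore restates signal in CM and none measured in the other media. For Tgfb3 they were Rbpjl (0.9776), the collagenase gene Mmp13 (0.9603) and Sohlh2 (0.9592).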
